A study of Mus musculus with 18 samples.

Results

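The 40 genes described here form the core machinery that copies DNA and divides cells: 20 act in DNA replication and its control at the entry into S phase, and 20 act in mitosis. They were taken as a named list and matched by gene symbol to the count table of 55416 mouse gene IDs, where all 40 were found. Of these, 39 had reads, and all 39 were among the 17174 genes tested for differences between models. The remaining member, Cdt1, which loads the replicative helicase, is listed at 0 reads in all 18 libraries and was not tested. The same table lists Sox2 and Neurod1, which neural progenitors use, at 0 in all 18 libraries too, so the 0 of Cdt1 was not read as an absence of its RNA.

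The libraries hold poly(A)+ RNA of tissue resected around brain metastases in 18 mouse brains labelled WT, 6 for each of 3 models. The melanoma model was made with B16-F10-BrM4 cells (libraries 1 to 6), the breast cancer model with EO771-BrM3 cells (libraries 14 to 19) and the lung cancer model with 482N1 cells (libraries 7 to 11 and 13), so that each model rests on 1 cell line and the kind of tumour and the line cannot be told apart. All mice were killed 10 days after an injection of 40000 cells, and each library is called here by its number, as a replicate of its model. No brain without a tumour was analysed here, and every comparison lies between models that all carried one. Library numbers run on by model and the labels give no batch, so that a batch and the model cannot be told apart.

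Library totals were 10669355 to 13396710 counts in melanoma, 7366250 to 13544054 in breast and 12070005 to 14533877 in lung libraries, and 3 counts stood for 0.206 to 0.407 CPM, the count scaled to its library total. Brain tissue markers were abundant in each library, with 5 neuron genes summing to 2728 to 5526 CPM in melanoma, 2132 to 3524 CPM in breast and 3326 to 4680 CPM in lung libraries. Tumour RNA was present as well: 11 melanocyte genes held 0.398% to 2.46% of all reads in melanoma libraries, against 0.00145% to 0.00226% in breast and 0.00116% to 0.00136% in lung libraries. In bulk tissue a larger number of dividing cells and more of a transcript in each cell cannot be told apart, and whether tumour cells or host cells made the RNA of a member was not tested. In melanoma replicate 3 and in breast replicates 18 and 19, long transcripts were scarce: with each doubling of transcript length, log2 CPM relative to the gene's mean moved by -0.28, -0.29 and -0.23. The other 15 libraries had slopes of -0.13 to 0.20.

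A dividing cell first licenses replication origins by loading the MCM helicase ring, then fires them in S phase, when the clamp PCNA and the enzymes that make deoxynucleotides are needed. In mitosis, cyclin B with CDK1, the Aurora and Polo-like kinases, kinesin motors and the spindle checkpoint separate the copied chromosomes. The genes of both phases are switched on in turn: E2F factors bind sites upstream of many replication genes, and a complex of MuvB with B-MYB and FOXM1 acts on mitotic genes through an element called CHR, often with CCAAT boxes, which NF-Y binds, next to it. In the adult brain most neurons and glia no longer divide, while tumour cells, proliferating microglia, precursor cells and activated T cells can do so.

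The upstream sequences show how the 2 roles differ in the letters of their promoters. RefSeq windows on GRCm38.p6 from 250 bases before to 50 bases after the gene start were available for 33 of the 40 members (17 replication, 16 mitosis). Printed here are 6 of them, each as the 250 bases upstream of the start and 5′ to 3′ on the strand of the gene: 3 replication members with an E2F match and 3 mitosis members with a CHR match. Capitals mark each match, on either strand, to the E2F words TTTGGCGC, TTTCCCGC, TTTGCCGC and TTTCGCGC, the CHR words TTTGAA and TTCGAA, and CCAAT. Cdc6 (chr11:98907901-98908150, plus strand) encodes the loader of the helicase, Mcm6 (chr1:128359706-128359955, minus strand) a helicase subunit, and Cdk2 (chr10:128705052-128705301, minus strand) the kinase of S phase entry. Cdc20 (chr4:118437344-118437593, minus strand) encodes the activator of anaphase, Cdk1 (chr10:69352913-69353162, minus strand) the mitotic kinase, and Mki67 (chr7:135716380-135716629, minus strand) the Ki-67 antigen of cycling cells.
Cdc6: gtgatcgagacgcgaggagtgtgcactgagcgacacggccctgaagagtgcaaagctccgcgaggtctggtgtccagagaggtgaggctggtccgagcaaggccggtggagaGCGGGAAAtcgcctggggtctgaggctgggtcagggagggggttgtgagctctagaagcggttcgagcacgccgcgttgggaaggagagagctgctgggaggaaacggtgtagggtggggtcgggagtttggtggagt
Mcm6: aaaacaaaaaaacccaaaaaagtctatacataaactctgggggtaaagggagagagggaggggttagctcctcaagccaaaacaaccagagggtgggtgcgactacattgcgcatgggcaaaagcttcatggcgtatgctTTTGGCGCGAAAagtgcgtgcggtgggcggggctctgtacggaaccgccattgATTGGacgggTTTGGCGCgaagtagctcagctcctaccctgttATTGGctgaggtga
Cdk2: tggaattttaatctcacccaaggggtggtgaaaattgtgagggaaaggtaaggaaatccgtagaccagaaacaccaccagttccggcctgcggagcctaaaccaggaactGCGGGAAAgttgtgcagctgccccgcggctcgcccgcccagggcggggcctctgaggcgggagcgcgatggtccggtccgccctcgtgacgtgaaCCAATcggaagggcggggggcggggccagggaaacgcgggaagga
Cdc20: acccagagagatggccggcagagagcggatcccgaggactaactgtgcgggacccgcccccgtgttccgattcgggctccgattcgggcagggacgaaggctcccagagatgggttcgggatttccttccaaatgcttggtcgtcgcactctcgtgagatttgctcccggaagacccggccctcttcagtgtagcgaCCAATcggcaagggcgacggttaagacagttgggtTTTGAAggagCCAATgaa
Cdk1: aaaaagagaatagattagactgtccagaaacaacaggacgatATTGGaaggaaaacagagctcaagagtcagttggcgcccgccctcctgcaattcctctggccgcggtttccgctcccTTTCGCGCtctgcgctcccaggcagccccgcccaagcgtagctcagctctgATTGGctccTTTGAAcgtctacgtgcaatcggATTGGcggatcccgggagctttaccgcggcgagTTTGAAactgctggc
Mki67: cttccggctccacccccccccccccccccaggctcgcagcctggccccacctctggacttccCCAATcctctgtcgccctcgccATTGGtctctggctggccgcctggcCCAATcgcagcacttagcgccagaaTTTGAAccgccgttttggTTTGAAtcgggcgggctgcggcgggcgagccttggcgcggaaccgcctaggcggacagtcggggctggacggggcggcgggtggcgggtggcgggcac

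Positions are counted back from the gene start, with -1 the last base before it, and give the first base of each match. The end of the window was found in an annotated transcript of the gene for 25 of the 33 members. For Mcm6, printed above, it was not found. Cdc6 held its E2F match at -138, Cdk2 at -140, and Mcm6 had 3 at -110, -106 and -47, of which the first 2 overlap. Cdc20 held 1 CHR match at -18 between CCAAT matches at -53 and -8, Mki67 had CHR matches at -116 and -98 downstream of 3 CCAAT matches, and Cdk1 carried both kinds, with an E2F match at -131 and CHR matches at -71 and -15. Over the whole windows, an E2F word stood in 9 of 17 replication members (52.9%), 1 of 16 mitosis members (6.25%) and 2.605% of all 27025 genes with a window. A CHR word stood in 2 of 17 replication members (11.8%), 12 of 16 mitosis members (75%) and 21.7% of all genes. CHR and CCAAT occurred together in the same 2 and 12 members and in 9.65% of all genes. CCAAT, with or without CHR, was common, in 58.8% of replication members, 87.5% of mitosis members and 41.1% of all genes. Such matches are letters in a window and say nothing of which factor was bound in these brains.

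**Figure D1:**
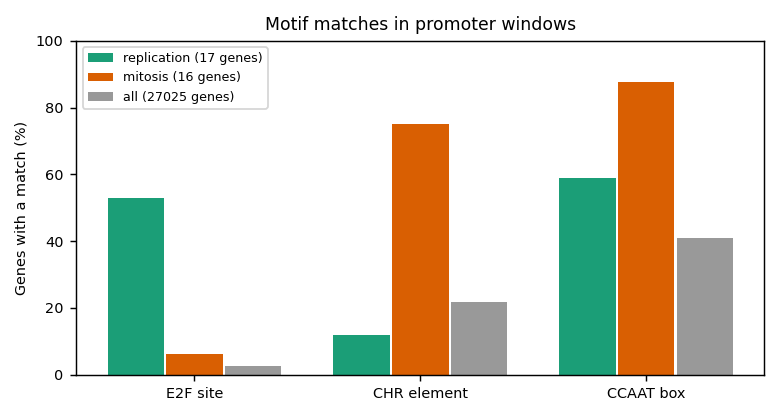
Share of genes (%, vertical axis) with at least 1 match to each motif in the RefSeq window from 250 bases before to 50 after the gene start, for replication members, mitosis members and all genes. E2F words are in 52.9% of replication and 6.25% of mitosis members, and CHR words in 11.8% and 75%.

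In tissue around the metastases, fold changes of nearly all members lay above 0 for the melanoma and breast models against the lung model. In the main fit fewer than 1 in 3 members passed the test in either comparison, and the melanoma and breast models differed in few of them. Against lung, 9 of 39 members rose and 0 fell in melanoma, where 23.2% of all genes tested were called (8.51% higher and 14.7% lower). The share of members called lay near the 23.2% of both directions together, not near the 8.51% called higher, and was not tested against either. The count of 9 rests on single melanoma libraries: it was 5 without replicate 1 or 2, 17 without replicate 5 and 22 without replicate 6, and 19 with the trend of counts with transcript length removed. In breast against lung, 12 members rose and 0 fell, against 18.3% of all genes (11.2% higher and 7.16% lower). That count depends on the fit as well: it was 25 when only the 12 breast and lung libraries were fitted. Between melanoma and breast 2 members were higher and 2 lower in melanoma, a share below the 28.9% of all genes (9.76% higher and 19.2% lower) called there. Unless another setting is named, calls are those of edgeR's quasi-likelihood test over all 18 libraries, at a Benjamini-Hochberg adjusted p under 0.05. In 1 test of any difference among the 3 models, 15 members differed (35.8% of all genes).

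The median log2 fold change of the 39 members was 0.74 in melanoma over lung, against 0.02 over all genes, with 36 members above 0 (the ± of each fold change given for a gene is its standard error). In breast over lung it was 0.68, against -0.02 over all genes, with 37 members above 0. For melanoma over breast the median was -0.06, against 0.04 over all genes, with 17 members above 0. Because the 2 comparisons with lung share the same 6 lung libraries, they are given side by side and not as support for each other. The libraries of breast and lung did not overlap for 12 members, each higher in breast (8.94% of all genes): Mcm5, Mcm6, Mcm7, Rrm1, Rrm2, Cdc6, Ccne1, E2f1, Uhrf1, Aurkb, Plk1 and Cdc20. No member was lower in breast without overlap (5.91% of all genes). Melanoma did not overlap lung for 1 member, Cdk2, which was higher (4.69% of all genes, and 9.63% lower), and Cdk2 was also the 1 member where melanoma did not overlap breast (4.98% of all genes higher and 12.1% lower).

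**Figure D2:**
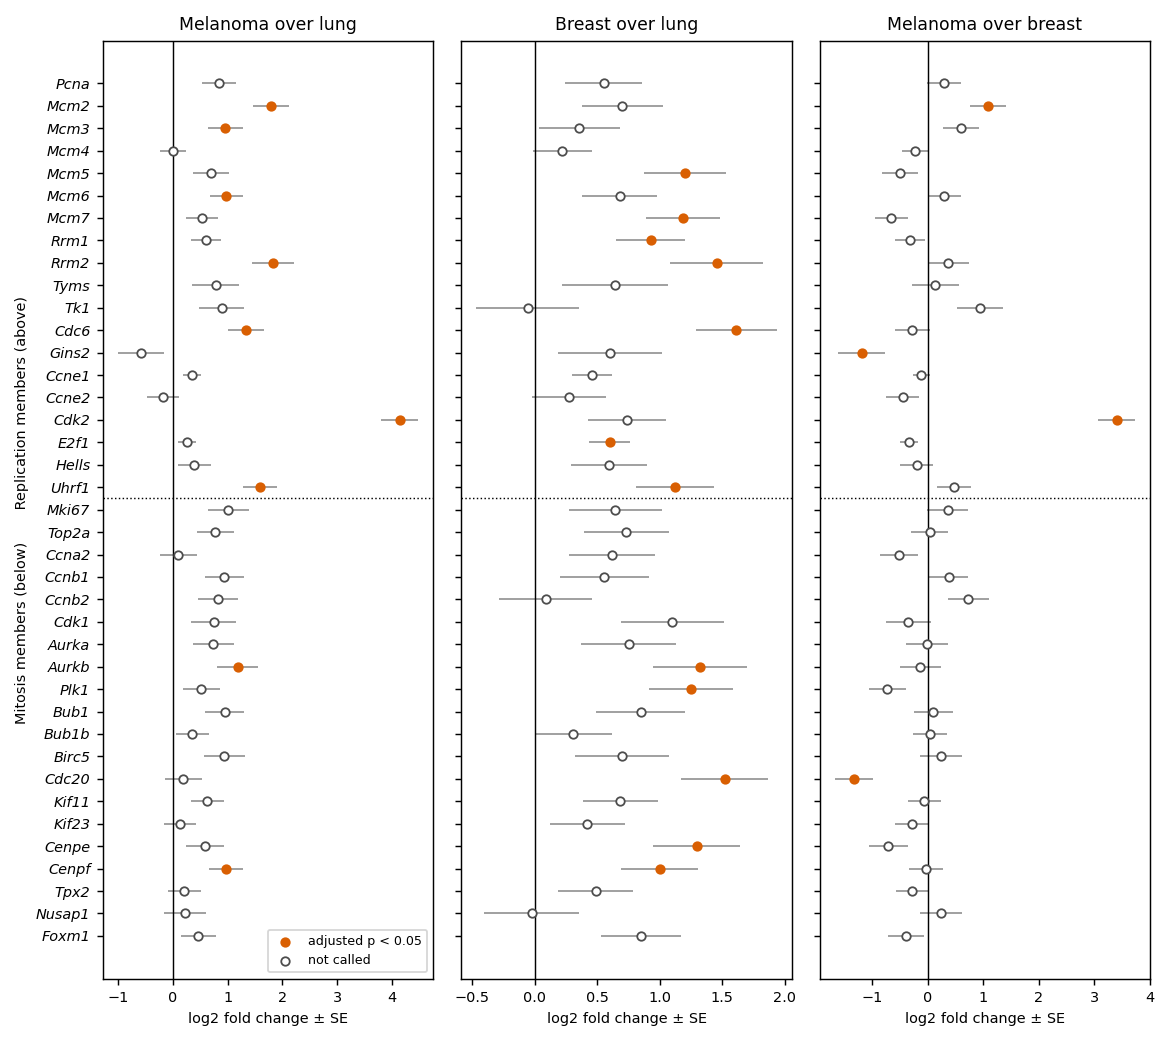
Log2 fold change of the 39 tested members (horizontal axis, bars are the SE of the fit) for melanoma over lung, breast over lung and melanoma over breast, replication members above and mitosis members below the dotted line. Filled points passed an adjusted p of 0.05. Cdk2 stands out at 4.14 in melanoma over lung, and nearly all other points of the first 2 panels lie right of 0.

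Among the genes that license origins and unwind DNA, Cdc6, which brings the helicase to origins, was higher in both models than in lung. It was at 25.7, 19.9, 19.2, 11.1, 6.95 and 5.201 CPM in melanoma replicates 1 to 6, 11.9 to 23.6 CPM (median 17.9) in breast and 3.65 to 7.77 CPM (median 5.81) in lung libraries. Every breast library lay above every lung library, while melanoma replicates 5 and 6 lay within the lung range. The change was 2.53-fold in melanoma over lung (log2 fold change 1.34 ± 0.32 (SE), adjusted p = 0.00404) and 3.06-fold in breast over lung (log2 fold change 1.61 ± 0.32 (SE), adjusted p = 0.00127).

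The 6 MCM subunits form 1 hexameric ring, yet their changes differed in size. Mcm2 was at 241, 234, 259, 106, 76.7 and 54.3 CPM in melanoma replicates 1 to 6, 60.9 to 92.6 CPM (median 76.4) in breast and 33.1 to 66.9 CPM (median 46.6) in lung libraries. Replicates 1 to 4 of melanoma stood above all breast and lung libraries. The difference was 3.45-fold over lung (log2 fold change 1.79 ± 0.33 (SE), adjusted p = 0.000342) and 2.13-fold over breast (log2 fold change 1.09 ± 0.32 (SE), adjusted p = 0.0144), while breast over lung was not called (log2 fold change 0.70 ± 0.32, adjusted p = 0.151). Limma on voom-weighted counts ended the call against breast (0.86, adjusted p = 0.0584), as did limma on the deposited CPM values (0.90, adjusted p = 0.0689).

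Mcm6 was at 193, 163, 145, 80.9, 54.5 and 40.7 CPM in melanoma replicates 1 to 6, against 75.6 to 109 CPM (median 90.7) in breast and 38.2 to 71.2 CPM (median 59.7) in lung libraries. Its rise over lung (log2 fold change 0.98 ± 0.30 (SE), adjusted p = 0.0217) and that of Mcm3 (log2 fold change 0.96 ± 0.32 (SE), adjusted p = 0.0375) were each lost without melanoma replicate 1 or without replicate 2, and the call of Mcm3 also without melanoma replicate 3 or lung replicate 8, 10 or 11. Limma voom ended both calls (adjusted p = 0.0745 for Mcm6 and 0.141 for Mcm3), as did limma on the deposited CPM (0.0849 and 0.15) and a fit of the 12 melanoma and lung libraries alone (0.0662 and 0.0995). The call of Mcm3 was also lost without the 3 libraries poor in long transcripts (adjusted p = 0.0772). Mcm5 and Mcm7 were the subunits called in breast instead. Mcm5 was at 26.4 to 122 CPM (median 76.7) in melanoma, 86.5 to 135 CPM (median 106) in breast and 28.4 to 64.8 CPM (median 46.4) in lung libraries, with breast entirely above lung (2.30-fold, log2 fold change 1.20 ± 0.33 (SE), adjusted p = 0.0142).

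Mcm7 was at 32.7 to 126 CPM (median 74.8) in melanoma, 93.7 to 154 CPM (median 119.7) in breast and 32.5 to 68.7 CPM (median 52.6) in lung libraries, again with no overlap between breast and lung (2.27-fold, log2 fold change 1.19 ± 0.30 (SE), adjusted p = 0.00783). Melanoma spanned nearly the whole lung range and much of the breast range for both. Mcm4, the remaining subunit, was called in no comparison, with log2 fold changes of -0.0027 in melanoma over lung, 0.22 in breast over lung and -0.22 in melanoma over breast. Of the exonic bases of Mcm7, 10.8% lie over Ap4m1 on the opposite strand, and no source used here gives the strand setting of the counting.

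Gins2 belongs to the GINS complex that works with the helicase at the fork, and it was the replication member lower in melanoma than in breast. It was at 17.3, 14.7, 25.7, 7.34, 5.01 and 4.13 CPM in melanoma replicates 1 to 6, 12.99 to 54.1 CPM (median 24.4) in breast and 9.87 to 29.1 CPM (median 18.5) in lung libraries. Melanoma and breast overlapped, and breast replicates 18 and 19 were the highest of all 18 libraries. The call (log2 fold change -1.18 ± 0.42 (SE), adjusted p = 0.0428) ended when any 1 of 10 libraries was left out and without the 3 libraries poor in long transcripts (-0.96, adjusted p = 0.0699). Its counts are uncertain besides, since 70.7% of its exonic bases lie over Gse1 on the opposite strand. Smaller shares lie over a gene of the opposite strand in Ccne2 (10.5%), Ccna2 (10.4%), Plk1 (7.09%), Tk1 (5.76%), Nusap1 (4.25%) and Cdc20 (2.96%).

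Pcna, the sliding clamp of DNA polymerases, was the highest member per kilobase of transcript in breast (66.8 CPM per kb) and lung libraries (45.5 CPM per kb) and the second in melanoma (82.0 CPM per kb). It was at 157, 145, 251, 78.2, 57.7 and 57.9 CPM in melanoma replicates 1 to 6, 76.4 to 147 CPM (median 95.6) in breast and 46.6 to 91.9 CPM (median 65.1) in lung libraries. All 3 models overlapped. Pcna was not called in melanoma over lung (log2 fold change 0.85 ± 0.31, adjusted p = 0.0563), breast over lung (0.55 ± 0.31, adjusted p = 0.257) or melanoma over breast (0.30 ± 0.31, adjusted p = 0.488).

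Of the deoxynucleotide genes, Rrm2, the subunit of ribonucleotide reductase that is made in S phase, was called in both models against lung. It was at 216, 191, 235, 81.1, 44.1 and 44.5 CPM in melanoma replicates 1 to 6, 80.4 to 132 CPM (median 104) in breast and 23.2 to 57.4 CPM (median 39.2) in lung libraries. Breast lay wholly above lung, and melanoma replicates 5 and 6 lay among the lung libraries. The change was 3.55-fold in melanoma over lung (log2 fold change 1.83 ± 0.38 (SE), adjusted p = 0.00106) and 2.74-fold in breast over lung (log2 fold change 1.45 ± 0.37 (SE), adjusted p = 0.00929), with no call between melanoma and breast (log2 fold change 0.38 ± 0.36, adjusted p = 0.459).

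Rrm1, the large subunit of the same enzyme, was called in breast over lung at 1.90-fold (log2 fold change 0.93 ± 0.28 (SE), adjusted p = 0.0239), a call that ended without lung replicate 10 or 11 or breast replicate 16 or 18. Its log2 fold change in melanoma over lung was 0.61 ± 0.28 (adjusted p = 0.128). The thymidylate genes Tyms, which makes dTMP, and Tk1, which salvages thymidine, were called in no comparison. Tk1 had log2 fold changes of 0.89 in melanoma over lung, -0.06 in breast over lung and 0.95 in melanoma over breast, and Tyms had 0.78, 0.64 and 0.14 in the same order.

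E2f1, a transcription factor that turns on S phase genes, differed by little but with little spread. It was at 17.5 to 37.8 CPM (median 21.5) in melanoma, 26.9 to 37.05 CPM (median 29.3) in breast and 18.2 to 22.4 CPM (median 20.6) in lung libraries. Every breast library was above every lung library, and the gene was called at 1.52-fold (log2 fold change 0.60 ± 0.16 (SE), adjusted p = 0.0138). Melanoma over lung (log2 fold change 0.26 ± 0.16, adjusted p = 0.303) and melanoma over breast (-0.34 ± 0.16, adjusted p = 0.135) were not called. The E-type cyclins, partners of CDK2, were not called either: Ccne1 had 0.35 in melanoma over lung, 0.46 in breast over lung (adjusted p = 0.0559, with no overlap between the libraries) and -0.11 in melanoma over breast, and Ccne2 had -0.18, 0.27 and -0.45.

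Uhrf1, which brings the maintenance DNA methyltransferase to newly copied DNA, was called in both models against lung. It was at 92.5, 72.5, 57.8, 36.6, 25.6 and 17.9 CPM in melanoma replicates 1 to 6, 26.3 to 47.00 CPM (median 35.8) in breast and 10.6 to 20.8 CPM (median 17.9) in lung libraries. Melanoma overlapped lung through replicate 6 alone, and breast did not overlap lung. The change was 3.02-fold in melanoma over lung (log2 fold change 1.59 ± 0.31 (SE), adjusted p = 0.000703) and 2.17-fold in breast over lung (log2 fold change 1.12 ± 0.31 (SE), adjusted p = 0.0158). Hells, a chromatin remodeller, was called in no comparison, with log2 fold changes of 0.40, 0.59 and -0.20 for melanoma over lung, breast over lung and melanoma over breast.

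**Figure D3:**
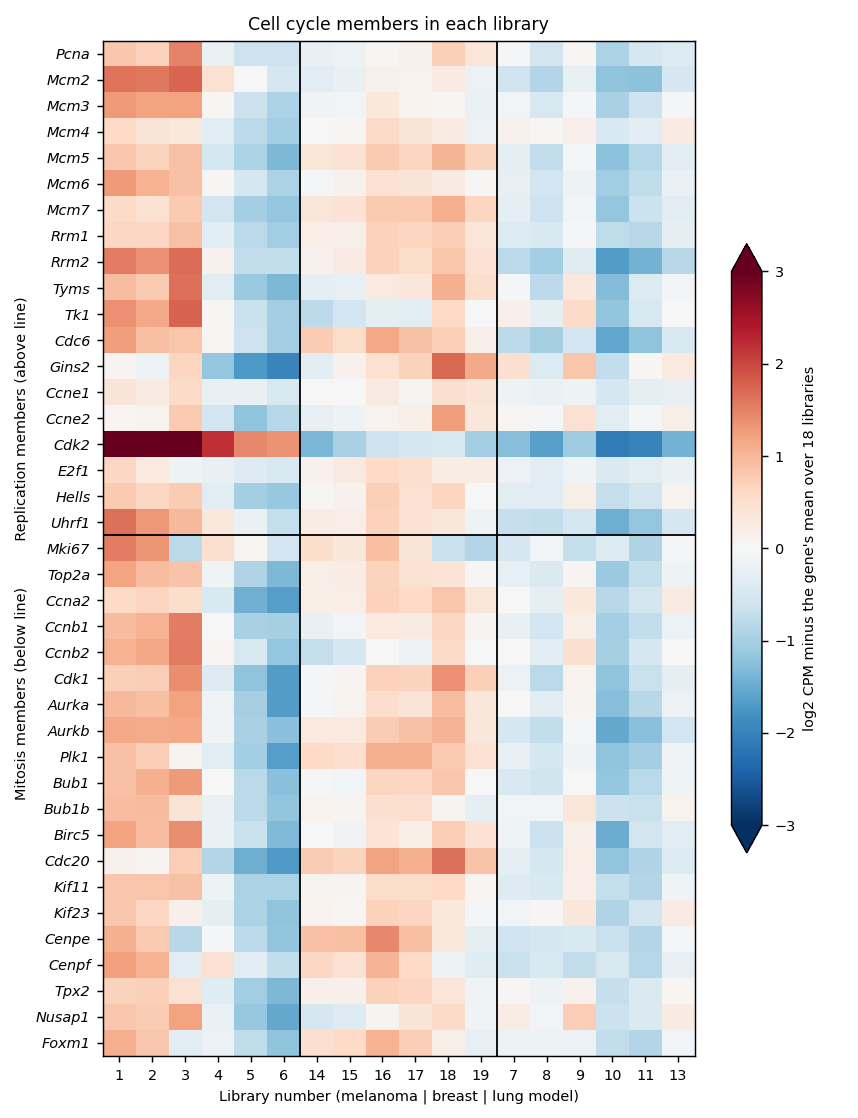
Log2 CPM of each member (rows, replication above and mitosis below the line) in each library (columns, melanoma, breast and lung from left to right) minus the mean of that gene over the 18 libraries, with red above and blue below it and colours held at 3 either way. Melanoma replicates 1 to 3 are red through most rows and replicates 5 and 6 blue, breast libraries are nearly even, and the Cdk2 row is red in all 6 melanoma libraries.

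Cdk2, the kinase that works with cyclins E and A, stood apart from the other members by its size. It was at 405, 379, 470.0, 212, 128 and 119.9 CPM in melanoma replicates 1 to 6, 18.2 to 33.98 CPM (median 27.1) in breast and 10.9 to 22.4 CPM (median 16.3) in lung libraries. The lowest melanoma library was above the highest breast and lung libraries. The difference was 17.6-fold over lung (log2 fold change 4.14 ± 0.34 (SE), adjusted p = 2.76e-08) and 10.6-fold over breast (log2 fold change 3.41 ± 0.33 (SE), adjusted p = 1.91e-07), while breast over lung was not called (log2 fold change 0.73 ± 0.31, adjusted p = 0.118). Per kilobase of transcript Cdk2 was the highest of 39 members in melanoma (119 CPM per kb), the 22nd in breast (11.2 CPM per kb) and the 25th in lung libraries (6.73 CPM per kb). Its partner cyclins Ccne1, Ccne2 and Ccna2 were not called in melanoma over lung.

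Cdk2 lies beside Pmel, the melanosome matrix gene, on chromosome 10, with gene spans of chr10:128697939-128705031 on the minus strand and chr10:128704195-128720238 on the plus strand (GENCODE M21, GRCm38). The spans share 837 bases on opposite strands. In the basic set of that annotation, the only one searched for exons, no exon of one lies over an exon of the other. Pmel was at 3960 (replicate 1), 3147 (replicate 2), 4774 (replicate 3), 1585 (replicate 4), 1072 (replicate 5) and 809.7 CPM (replicate 6) in melanoma, against 0.449 to 2.18 CPM in breast and 0.581 to 1.72 CPM in lung libraries. The 6 melanoma libraries had the same order for both genes, and Cdk2 stood at 9.85% to 14.8% of Pmel. Whether reads of Pmel were counted as Cdk2 was not tested, and the kit was directional, per the labels' protocols, while the strand setting of the counting was not given. No CATGTG or CACGTG, hexamers to which the melanocyte factor MITF can bind, stood in the Cdk2 window (22.7% of all windows hold 1), which says only that these letters are absent there.

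**Figure D4:**
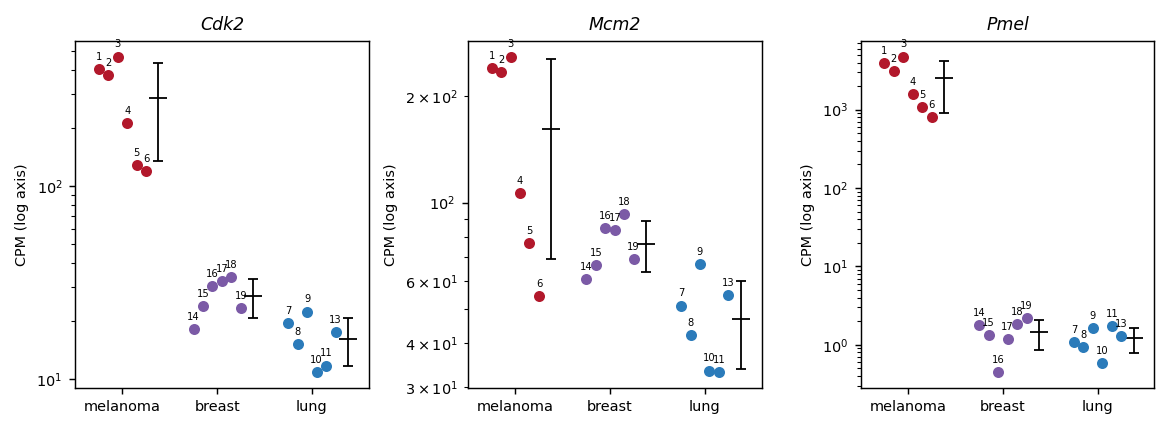
CPM on a log axis for Cdk2, Mcm2 and Pmel in each library (points, numbered by library) of the melanoma, breast and lung models, with the mean ± SD of each model beside its points. Cdk2 separates melanoma (119.9 to 470.0 CPM) from both other models, Mcm2 overlaps between models, and Pmel is at most 2.18 CPM outside melanoma.

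Turning to mitosis, Mki67, which coats mitotic chromosomes and marks cycling cells, was not called in any comparison. It was at 129, 112, 25.2, 61.99, 46.4 and 29.9 CPM in melanoma replicates 1 to 6, 63.6, 56.01, 83.7, 58.4, 27.8 and 24.2 in breast replicates 14 to 19 and 23.96 to 43.3 CPM (median 32.5) in lung libraries. Melanoma replicate 3 and breast replicates 18 and 19 were the lowest of their models, the same 3 libraries that were poor in long transcripts, and the Mki67 transcript is 10061 bases long. Its log2 fold change was 1.01 ± 0.37 in melanoma over lung (adjusted p = 0.0605), 0.64 ± 0.37 in breast over lung (adjusted p = 0.272) and 0.36 ± 0.37 in melanoma over breast (adjusted p = 0.481). Without the 3 libraries it was called against lung in both melanoma (1.19, adjusted p = 0.00615) and breast (0.90, adjusted p = 0.047).

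Top2a, the topoisomerase that untangles sister chromatids, was at 305, 255, 243, 123, 72.2 and 52.8 CPM in melanoma replicates 1 to 6, 138 to 214 CPM (median 167) in breast and 61.5 to 141 CPM (median 106) in lung libraries. Melanoma reached both above the breast libraries and below the lung ones. It was not called in melanoma over lung (log2 fold change 0.77 ± 0.34, adjusted p = 0.119), breast over lung (0.73 ± 0.34, adjusted p = 0.156) or melanoma over breast (0.04 ± 0.34, adjusted p = 0.942), where its sign turned under some settings.

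The kinase that drives entry into mitosis and its cyclins were not called either. Cdk1 was at 105, 108, 169, 48.97, 27.9 and 20.1 CPM in melanoma replicates 1 to 6, 63.3 to 166 CPM (median 103) in breast and 27.96 to 69.2 CPM (median 46.6) in lung libraries, with log2 fold changes of 0.75 ± 0.41 (adjusted p = 0.228) in melanoma over lung, 1.10 ± 0.41 (adjusted p = 0.0737) in breast over lung and -0.35 ± 0.41 (adjusted p = 0.543) in melanoma over breast. Ccnb1, cyclin B1, was at 35.95, 38.2, 54.1, 18.8, 9.55 and 9.41 CPM in melanoma replicates 1 to 6, 16.1 to 28.8 CPM (median 21.1) in breast and 9.21 to 21.1 CPM (median 14.3) in lung libraries. Its log2 fold change was 0.94 ± 0.36 in melanoma over lung (adjusted p = 0.0669), 0.55 ± 0.36 in breast over lung (adjusted p = 0.332) and 0.38 ± 0.35 in melanoma over breast (adjusted p = 0.434). For both genes melanoma replicates 1 to 3 were above all lung libraries and replicates 5 and 6 were within or below the lung range. Ccna2, Ccnb2 and Foxm1, the transcription factor of mitotic genes, had log2 fold changes of 0.10, 0.82 and 0.46 in melanoma over lung and 0.62, 0.09 and 0.85 in breast over lung, none of them called.

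Among the mitotic kinases, Aurkb, the catalytic part of the chromosomal passenger complex, was called in both models against lung. It was at 60.1, 59.2, 60.5, 25.3, 13.9 and 11.47 CPM in melanoma replicates 1 to 6, 33.5 to 55.7 CPM (median 40.4) in breast and 9.38 to 26.7 CPM (median 17.4) in lung libraries. Breast did not overlap lung, and melanoma replicates 4 to 6 stood within the lung range. The change was 2.27-fold in melanoma over lung (log2 fold change 1.19 ± 0.38 (SE), adjusted p = 0.0264) and 2.50-fold in breast over lung (log2 fold change 1.32 ± 0.38 (SE), adjusted p = 0.0185). Leaving out melanoma replicate 1, 2 or 3, or lung replicate 10 or 11, ended the first call, as did limma voom (adjusted p = 0.0976), limma on the deposited CPM (adjusted p = 0.107), a fit of the 12 melanoma and lung libraries alone (adjusted p = 0.0719) and the one without the 3 libraries poor in long transcripts (adjusted p = 0.056). Leaving out lung replicate 11 or breast replicate 18 ended the second.

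Plk1, Polo-like kinase 1, was at 7.35 to 42.3 CPM (median 21.3) in melanoma, 31.7 to 48.6 CPM (median 36.9) in breast and 9.96 to 21.3 CPM (median 17.5) in lung libraries. All 6 breast libraries were above all 6 lung libraries (2.37-fold, log2 fold change 1.25 ± 0.34 (SE), adjusted p = 0.0129), while melanoma over lung was not called (log2 fold change 0.52 ± 0.33, adjusted p = 0.321). Aurka and Birc5, a passenger complex subunit also known as survivin, were called in no comparison, with log2 fold changes of 0.74 and 0.94 in melanoma over lung and 0.75 and 0.70 in breast over lung.

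Cdc20, which activates the anaphase-promoting complex, was the mitosis member called between the breast model and both others. It was at 32.2, 30.8, 48.8, 15.98, 10.6 and 8.998 CPM in melanoma replicates 1 to 6, 49.6, 46.4, 67.4, 62.2, 91.4 and 52.8 in breast replicates 14 to 19 and 12.9 to 33.6 CPM (median 21.3) in lung libraries. The lowest breast library was above all lung libraries, and only melanoma replicate 3 reached the breast range. Cdc20 was 2.86-fold higher in breast than in lung (log2 fold change 1.52 ± 0.35 (SE), adjusted p = 0.00405) and lower in melanoma than in breast (log2 fold change -1.32 ± 0.35 (SE), adjusted p = 0.00642), with no call in melanoma over lung (log2 fold change 0.19 ± 0.34, adjusted p = 0.76). Both calls held in each alternative setting and each left-out library. The checkpoint kinases Bub1 and Bub1b, which hold anaphase back, were not called in any comparison, with 0.95 and 0.36 in melanoma over lung and 0.85 and 0.31 in breast over lung.

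Of the motors and centromere proteins, Cenpe, a kinesin that carries chromosomes to the spindle equator, was called in breast over lung (2.45-fold, log2 fold change 1.29 ± 0.35 (SE), adjusted p = 0.0131). It was at 47.3, 38.8, 12.7, 21.9, 13.1 and 9.99 CPM in melanoma replicates 1 to 6, 41.7, 42.5, 61.1, 42.3, 27.97 and 18.6 in breast replicates 14 to 19 and 12.4 to 21.6 CPM (median 15.5) in lung libraries. Cenpf, a kinetochore protein, was called against lung in melanoma (1.96-fold, log2 fold change 0.97 ± 0.31 (SE), adjusted p = 0.0258) and in breast (1.996-fold, log2 fold change 1.00 ± 0.31 (SE), adjusted p = 0.0283). It was at 47.3, 41.4, 15.8, 27.4, 16.04 and 11.97 CPM in melanoma replicates 1 to 6, 30.8, 27.1, 40.5, 30.4, 18.2 and 15.6 in breast replicates 14 to 19 and 11.1 to 16.9 CPM (median 13.6) in lung libraries. Their transcripts, of 7910 and 11130 bases, are with Mki67 the 3 longest among the members, and breast replicates 18 and 19 were the lowest breast libraries for both. Without the 3 libraries poor in long transcripts Cenpf changed by 1.09 in melanoma (adjusted p = 0.00701) and 1.18 in breast (adjusted p = 0.00797). Leaving out melanoma replicate 1 or 2, or lung replicate 7 or 9, ended the melanoma call of Cenpf, as did limma voom (adjusted p = 0.0755) and limma on the deposited CPM (adjusted p = 0.0795). Leaving out lung replicate 7, 9 or 11, or breast replicate 16 or 17, ended the breast one, as did limma on the deposited CPM (adjusted p = 0.0597).

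The spindle proteins Kif11, Kif23, Tpx2 and Nusap1 were called in no comparison. Kif11, the motor that pushes spindle poles apart, had log2 fold changes of 0.63 in melanoma over lung and 0.68 in breast over lung. Kif23, a motor of cytokinesis, had 0.13 and 0.42, Tpx2, an activator of Aurora A, had 0.21 and 0.49, and Nusap1, which bundles microtubules, had 0.22 and -0.03 in the same order.

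Set side by side, replication and mitosis members gave 7 of 19 and 2 of 20 calls in melanoma over lung, and 7 of 19 and 5 of 20 in breast over lung, all of them higher. Of all genes 8.51% were called higher in melanoma over lung and 11.2% in breast over lung. The 2 of 20, Aurkb and Cenpf, lay near that background but rest on single libraries. Both calls ended without melanoma replicate 1 or 2. Without replicate 6, calls were added for the mitosis members Aurka, Birc5, Bub1, Ccnb1, Ccnb2, Kif11, Mki67 and Top2a. Calls of the replication members Ccne1, Mcm5, Pcna, Rrm1 and Tk1 were added as well. In melanoma over lung 20 of 20 mitosis and 16 of 19 replication members lay above 0. The difference between the roles was not tested. Their median log2 fold changes were 0.78 and 0.68 in melanoma over lung and 0.64 and 0.72 in breast over lung, so the medians of the roles lay close together in both. The mean log2 CPM of the 19 replication members was 6.35, 6.19, 6.44, 5.26, 4.72 and 4.50 in melanoma replicates 1 to 6, 5.26 to 5.95 in breast and 4.31 to 5.29 in lung libraries. That of the 20 mitosis members was 5.98, 5.90, 5.67, 4.90, 4.18 and 3.79 in melanoma replicates 1 to 6, 5.12 to 5.74 in breast and 4.12 to 5.11 in lung libraries. These means are not divided by transcript length, and so are for comparing libraries within a role. Per kilobase, the log2 ratio of summed replication CPM to summed mitosis CPM was 1.11 ± 0.174 (SD, n = 6) in melanoma, 0.438 ± 0.112 in breast and 0.478 ± 0.0934 in lung libraries, with Cdk2 included. It ran from 0.927 to 1.40 in melanoma, from 0.323 to 0.631 in breast and from 0.375 to 0.598 in lung libraries. Without Cdk2 the per kilobase ratio was 0.759 in melanoma, 0.397 in breast and 0.437 in lung libraries, and the lowest melanoma library (0.580) then lay within the breast range (0.280 to 0.595).

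The mean log2 CPM scale is not divided by transcript length, so a library poor in long transcripts can have a shifted gap between the roles. The gap on this scale was 0.508 ± 0.200 (SD, n = 6) in melanoma, 0.161 ± 0.168 in breast and 0.188 ± 0.0793 in lung libraries. It is no level of one role over the other. Without Cdk2, a choice made after its values were seen, it was 0.376 in melanoma, 0.208 in breast and 0.236 in lung libraries, and melanoma then ranged from 0.159 (replicate 2) to 0.632 (replicate 3). Breast ranged from 0.0516 to 0.458 and lung from 0.137 to 0.374 without Cdk2, so that the 3 models overlapped. Replicates 18 and 19 had the largest gaps in breast and replicate 3 in melanoma, which are the libraries poor in long transcripts. Melanoma replicate 6 came next to replicate 3, at 0.583 without Cdk2, and was not poor in long transcripts (slope 0.19). The median transcript length was 3097 bases for replication and 3474 for mitosis members. No test was made of these means, since the members were chosen with earlier results of these data known.

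**Figure D5:**
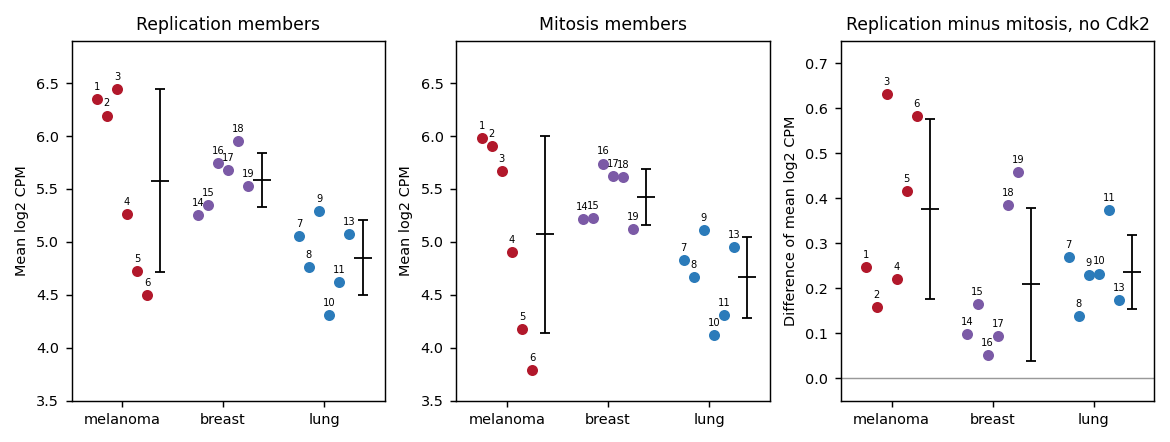
Mean log2 CPM of the replication members (left) and the mitosis members (middle), and the difference of these means without Cdk2 (right), in each library (points, numbered) of the melanoma, breast and lung models, with the mean ± SD of each model beside its points. Melanoma libraries spread from 4.50 to 6.44 for replication and from 3.79 to 5.98 for mitosis, wider than either other model, and the differences overlap between models.

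Levels of the members differed more among brains of the melanoma model than among those of the other models. The coefficient of variation of the 39 members had a median of 59.1% in melanoma, 21.8% in breast and 27.7% in lung libraries, and the highest library was a median of 4.92 times the lowest in melanoma, 1.78 times in breast and 2.11 times in lung. The members moved together: replicate 6 was the lowest melanoma library for 35 of 39 members, and replicate 3 or 1 was the highest for 22 and 14. In lung, replicate 9 was the highest for 30 and replicate 10 the lowest for 31. In breast, replicate 18 was the highest for 23 and replicate 14 the lowest for 20.

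Tumour markers varied between the libraries of a model too. The 11 melanocyte genes, all of them read in melanoma, held 1.68%, 1.51%, 2.46%, 0.793%, 0.492% and 0.398% of the reads of melanoma replicates 1 to 6, so the 3 libraries with the largest share were also the 3 with the highest member means. In lung, 9 epithelial genes summed to 1096, 915, 1318, 309.6, 686 and 591 CPM in replicates 7, 8, 9, 10, 11 and 13, highest in replicate 9 and lowest in replicate 10, as were most members. By mean log2 CPM of the 9 genes, replicate 8 was the highest (4.08), ahead of replicate 9 (3.39), and replicate 10 was again the lowest (1.94). Replicate 13 had the next to lowest epithelial sum but the second highest replication and mitosis means. The same genes summed to 5.09 to 5.86 CPM in melanoma and 66.8 to 168 CPM in breast libraries, mostly from Krt8 in the breast model. The part of tumour content in the differences between models was not tested.

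Markers of host cells that can divide differed from list to list. Summed CPM of 8 T cell genes was 7.91 to 27.8 in melanoma, 25.9 to 61.1 in breast and 10.1 to 46.6 in lung libraries, where Cd3e was listed at 0 in some melanoma and lung libraries. The 5 oligodendrocyte precursor genes summed to 133 to 374 CPM in melanoma, 314 to 421 in breast and 215 to 340 in lung libraries. Of the 5, 1 (Pdgfra) had a log2 fold change above 0 in breast over lung (119 to 199 CPM in breast against 30.5 to 52.6 CPM in lung libraries; median of the 5 genes -0.14). The 6 neural progenitor genes with reads, of 8, summed to 43.4 to 89.0 CPM in melanoma, 77.3 to 158 in breast and 58.0 to 88.3 in lung libraries, and Sox2 and Neurod1 were the 2 at 0. In breast over lung 3 of these 6 were above 0 (median -0.13), and the larger breast sum came with Nes (52.4 to 131 CPM in breast against 30.3 to 49.7 CPM in lung libraries). Sox11 was at 3.36 to 6.54 CPM in breast against 6.17 to 8.80 CPM in lung libraries. The 6 microglial genes summed to 349 to 507 CPM in melanoma, 1051 to 1556 in breast and 1035 to 1696 in lung libraries. Their part in the levels of the members was not tested.

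Other cell cycle genes, 121 tested of 122 in 8 lists, were mostly above 0 against lung (99 in melanoma, 113 in breast). In melanoma over lung 29 rose and 4 fell (8.51% and 14.7% of all genes), in breast over lung 40 rose and 1 fell (11.2% and 7.16% of all genes), and in melanoma over breast 2 were higher and 25 lower (9.76% and 19.2% of all genes). The counts of the single lists stand against these same shares of all genes and were not tested against them. The median log2 fold changes of the 121 genes were 0.42, 0.65 and -0.19 in these comparisons, against 0.02, -0.02 and 0.04 over all genes. Of 23 genes of the replication fork, 9 rose in melanoma over lung and 10 in breast over lung, and 0 fell in either. Clspn, which relays replication stress, was called in both (1.07 ± 0.28 (adjusted p = 0.00765) and 1.41 ± 0.28 (adjusted p = 0.00125)), and Chaf1b, a histone loader, had the largest change in melanoma over lung, 1.66 ± 0.41 (adjusted p = 0.00487). Pola2, a subunit of DNA polymerase alpha, was lower in melanoma than in breast (18.7 ± 8.69 CPM in melanoma and 40.7 ± 7.01 CPM in breast libraries, log2 fold change -1.12 ± 0.27 (SE), adjusted p = 0.00353).

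Of 10 origin genes, 3 rose in melanoma and 2 in breast against lung. Mcm10, which helps fire origins, changed by 1.12 ± 0.31 (adjusted p = 0.0119) in melanoma over lung, and Dbf4, the activator of the CDC7 kinase, by 1.46 ± 0.37 (adjusted p = 0.00815) in breast over lung. Among 11 nucleotide supply genes, 0 rose and 1 fell in melanoma over lung, 3 rose and 0 fell in breast over lung, and 0 were higher and 6 lower in melanoma over breast. Of all genes 8.51% rose and 14.7% fell in melanoma over lung, 11.2% rose and 7.16% fell in breast over lung, and 19.2% were lower in melanoma over breast. Umps and Cad, both of pyrimidine synthesis, rose in breast over lung (0.78 ± 0.16 (adjusted p = 0.00131) and 1.30 ± 0.24 (adjusted p = 0.000726)). Dck, which salvages deoxycytidine, was at 28.3 ± 0.746 CPM in melanoma and 39.6 ± 3.44 CPM in lung libraries, log2 fold change -0.48 ± 0.08 (SE), adjusted p = 0.000177.

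Among 12 G1 cyclins, their kinases and other E2F genes, 1 rose and 3 fell in melanoma over lung (8.51% and 14.7% of all genes), and 4 rose and 1 fell in breast over lung (11.2% and 7.16% of all genes). Ccnd1, cyclin D1, fell in melanoma (98.2 ± 19.6 CPM in melanoma and 344 ± 69.2 CPM in lung libraries, log2 fold change -1.81 ± 0.16 (SE), adjusted p = 6.26e-08), and its kinase partner Cdk6 fell with it, by -2.09 ± 0.26 (adjusted p = 4.44e-06). E2f8 and E2f7, repressors of the E2F family, rose in breast over lung by 1.88 ± 0.31 (adjusted p = 0.000163) and 1.66 ± 0.32 (adjusted p = 0.000977).

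Of the mitotic lists, 3 of 13 genes of G2 and M control rose in melanoma and 5 in breast against lung, and 0 fell. Chek1, a checkpoint kinase of S phase and G2, was called in both (1.84 ± 0.38 (adjusted p = 0.0011) and 1.92 ± 0.38 (adjusted p = 0.00114)), and Mybl2, which encodes B-MYB, rose in breast over lung (1.66 ± 0.35 (adjusted p = 0.00186)) and was lower in melanoma than in breast (-1.10 ± 0.34 (adjusted p = 0.0195)). Of 21 kinetochore and checkpoint genes 5 rose in melanoma and 6 in breast, of 19 spindle and cytokinesis genes 4 and 6, and of 12 condensin and cohesin genes 4 and 4, all against lung and with 0 lower in any of these lists. Kif14, a kinesin of cytokinesis, was called in both models against lung (1.83 ± 0.27 (adjusted p = 3.66e-05) and 1.79 ± 0.27 (adjusted p = 7.55e-05)). Ckap2, a spindle protein, and Cdca5, which protects cohesion, were lower in melanoma than in breast (-1.64 ± 0.31 (adjusted p = 0.000409) and -1.64 ± 0.40 (adjusted p = 0.00398)).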

How the data were processed

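RNA of peritumoral tissue went into directional poly(A)+ libraries, per the labels' protocols. The submitters' processing notes name bcl2fastq and GRCm39, while the aligner, the counter and its strand setting are not given in the sources used here. Raw counts in the deposited table are per Ensembl gene, with no normalization, and the deposited CPM table holds CPM of 16925 genes, from which whole reads were recovered for 100% of values (tolerance 0.01; 15366 rows matched by symbol). Its columns were all used (0 left out), and library 12 was not analysed here.

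Symbols (52083 of 55416 IDs, 99.8% of reads) and transcript lengths, of the longest coding transcript, came from GENCODE M21 on GRCm38. The fit used edgeR 4.0.16 under R 4.3.3, with robust quasi-likelihood, TMM scaling and filterByExpr, with 1 coefficient per model over 18 libraries and Benjamini-Hochberg adjustment over 17174 genes. CPM values in the text use TMM-scaled totals; levels of single genes are compared per kilobase, while mean log2 CPM of a role is not divided by length. Replicates are separate brains. Mean log2 CPM adds 0.25 CPM. Promoter windows were searched on both strands, a gene counting once over its windows; 7 members had no window. The fit was tested on simulated data. Alternatives used DESeq2 1.42.0 and limma 3.58.1.

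Members and lists were chosen with earlier results of these data known. Named in each comparison were Mki67, Top2a, Pcna, Mcm2, Rrm2, Ccnb1, Cdk1, E2f1 and up to 6 called members of each role with the smallest adjusted p, and from each other list up to 2 called genes, of which a part is described. The remaining members are given by fold changes.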

Additional observations from a re-analysis of the deposited data

How the results depend on the processing

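No paired analysis was possible because library numbers are not shared between models. The counts of called members moved by over 1.5 times from the main values of 9 (melanoma over lung), 12 (breast over lung) and 15 (any difference) under a few settings. Melanoma over lung gave 14 with DESeq2, 5 with limma voom, 5 with limma on log2(deposited CPM + 1) and 19 with the trend of counts with transcript length removed. Breast over lung gave 25 with only the 12 libraries compared, and any difference gave 23 with the length trend removed; the cause was not tested. The other scalings, filters and recovered reads left all 4 counts within 1.5 times, and no member was called lower against lung in any setting. With each library left out in turn, the counts were 5 to 22 for melanoma over lung, 9 to 14 for breast over lung, 3 to 7 for melanoma over breast and 9 to 26 for any difference. Melanoma over lung had 5 calls without melanoma replicate 1 or 2, 17 without replicate 5 and 22 without replicate 6. Melanoma over breast had 7 without melanoma replicate 1, and any difference had 26 without melanoma replicate 6 and 9 without lung replicate 11. Without the 3 libraries poor in long transcripts there were 8, 14, 3 and 13.

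Cdk2, Rrm2, Mcm2, Uhrf1 and Cdc6 stayed called in melanoma over lung, and Mcm5, Mcm7, Rrm2, Cdc6, E2f1, Uhrf1, Plk1, Cdc20 and Cenpe in breast over lung, in every setting and left-out fit. Mcm3, Mcm6, Aurkb and Cenpf lost their melanoma over lung call with limma voom and with limma on deposited CPM. Top2a in melanoma over breast, 0.04 in the main analysis, was -0.23 with limma voom, -0.18 on deposited CPM, -0.060 without the 3 libraries, and -0.19 to 0.29 with each library left out (below 0 without melanoma replicate 1, 2 or 3). Replication minus mitosis was 0.508, 0.161 and 0.188 in melanoma, breast and lung as mean log2 CPM, 0.480, 0.115 and 0.119 without the 3 mitosis members longer than the longest replication member, 0.376, 0.208 and 0.236 without Cdk2, and 1.11, 0.438 and 0.478 as the log2 ratio of summed CPM per kb (0.759, 0.397 and 0.437 without Cdk2). The settings without Cdk2 were chosen after seeing the data. Totals as low as 7366250 counts limit the breast libraries, where 3 counts stand for 0.407 CPM.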
